A study of Mus musculus with 16 samples.

Results

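Intercalated cell acid-base genes are 10 genes with which the collecting duct secretes acid or base: Slc4a1, Aqp6, Slc26a4, Slc4a9, Atp6v1b1, Atp6v0d2, Atp6v1g3, Foxi1, Rhcg and Car2. Each was found by its symbol in the deposited gene table, and all 10 were among the 25408 of its 57186 genes whose counts, summed over the 16 libraries, reached 100 and which were tested. Kidney RNA was sequenced from 4 mice in each of 4 labelled groups, 16 libraries in all. Every mouse was homozygous for the H allele of Elmo1 (Elmo1H/H), an allele that raises expression of this gene, so that no group carried only wild-type Elmo1. Non-diabetic mice had normal insulin genes (Elmo1H/HIns2+/+) and were untreated (ND_C) or given vitamin B12 in the drinking water (ND_B12). Diabetic mice carried the Akita allele of Ins2 (Elmo1H/HIns2Akita/+), whose misfolded insulin damages beta cells, and were likewise untreated (D_C) or given B12 (D_B12). The B12 dose was 10 mg/kg per day from 8 weeks of age, for 16 weeks by the labels, while the methods of the study give a shorter course and mice that were 16 weeks old at the end. By those methods all mice were male, on a C57BL/6J background, and fasted for some hours before their kidneys were taken.

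Intercalated cells lie among the water-reabsorbing principal cells of the collecting duct and connecting tubule and make up a small part of a whole kidney. Type A cells pump protons into the urine with a vacuolar H+-ATPase and return bicarbonate to the blood through the anion exchanger AE1. Type B cells carry the pump on the opposite side and secrete bicarbonate through pendrin. In these bulk samples, fewer cells of a type and less RNA per cell cannot be told apart.

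Before any result, the labels themselves need a caution. Group means tabulated in a supplement of the study were matched against the deposited libraries, and for no group was the closest set of libraries the labelled set. The tabulated D_C means were closest to the libraries labelled D_B12, and the tabulated D_B12 means to ND_B12 replicate 4 with D_C replicates 2, 3 and 4. These matches were nearly exact. The median absolute log2 difference was 0.00017 and 0.00016 for these sets, against 0.257 and 0.262 for the labelled sets. The diabetic groups are thus exchanged between the tabulated means and the labels, and leaving out libraries does not undo this. The tabulated ND_C means were closest to ND_C replicates 1, 2 and 4 with ND_B12 replicate 1. The tabulated ND_B12 means were closest to ND_C replicate 3, ND_B12 replicates 2 and 3 and D_C replicate 1. The expression data set the same libraries apart: on the first principal component, which held 22.4% of the variance, D_C replicate 1 scored -6.98, among negative scores for 7 of the 8 non-diabetic libraries, and ND_B12 replicate 4 scored 13.9, among the positive scores of the diabetic ones. All groups and directions below are therefore those of the labels. Counts of member calls and most differences of Aqp6 and Slc4a1 are also given without D_C replicate 1 and ND_B12 replicate 4. So are some other results where leaving them out changed a call. These same expression data helped to single out both libraries. Leaving out libraries unlike their group can narrow the spread and raise the number of calls. Between D_C and ND_C that number went from 423 to 2127 genes. The diabetes difference with or without B12 and the B12 difference in diabetic kidneys depend on whether the labels are right. The averages and the sign of the interaction do as well. So does the B12 difference in non-diabetic kidneys, because ND_C replicate 3 and ND_B12 replicate 1 changed places in the match. Totals ran from 85751266 to 91771136 counts in D_C and from 72867148 to 84053153 in ND_C, so depth was higher in every D_C library. The library names begin with 10 dates whose meaning is not stated, and no date holds libraries of both D_C and ND_C, of both D_C and D_B12, or of both D_B12 and ND_B12. Date and group cannot be told apart in those comparisons.

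The promoters of the pair of members whose values ran together (below), and of a subunit gene that carries a forkhead motif, show what lies in front of these genes. Each run covers 250 bases before and 50 after the start of the canonical transcript in GRCm39, 5′ to 3′ on the strand of the gene, and capitals mark the motif TGTTTAC, the core bound by forkhead factors such as Foxi1. Aqp6 is at chr15:99498825-99499124 on the plus strand, Slc4a1 at chr11:102256057-102256356 on the minus strand and Atp6v1b1 at chr6:83719717-83720016 on the plus strand.
Aqp6: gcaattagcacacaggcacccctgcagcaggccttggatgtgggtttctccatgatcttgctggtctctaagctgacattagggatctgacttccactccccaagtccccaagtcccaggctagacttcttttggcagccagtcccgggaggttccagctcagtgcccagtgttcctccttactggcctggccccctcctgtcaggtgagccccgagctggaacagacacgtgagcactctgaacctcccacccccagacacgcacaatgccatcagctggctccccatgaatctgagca
Slc4a1: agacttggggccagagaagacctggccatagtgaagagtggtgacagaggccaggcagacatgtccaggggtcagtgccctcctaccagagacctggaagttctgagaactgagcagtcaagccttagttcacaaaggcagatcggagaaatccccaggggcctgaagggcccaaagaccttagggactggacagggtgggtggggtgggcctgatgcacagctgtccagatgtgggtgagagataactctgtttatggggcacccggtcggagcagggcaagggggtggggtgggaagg
Atp6v1b1: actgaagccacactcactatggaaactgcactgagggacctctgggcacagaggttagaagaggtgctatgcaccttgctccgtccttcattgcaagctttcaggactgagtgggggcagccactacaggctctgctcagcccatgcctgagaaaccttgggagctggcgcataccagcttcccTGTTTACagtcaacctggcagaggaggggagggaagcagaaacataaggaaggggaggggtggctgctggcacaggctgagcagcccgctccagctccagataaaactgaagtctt
TGTTTAC was the only motif searched, on both strands. It occurred in 2 of the 10 member promoters, those of Atp6v1b1 (starting at base -66 from the transcript start) and Slc4a9 (base -219), and in 685 of all 21757 protein-coding promoters of the same length (3.15%). The Aqp6 and Slc4a1 runs do not hold these letters. The Slc4a1 run lies at the start of the canonical transcript of 929 codons, Slc4a1-201. The kidney transcript of Slc4a1 starts inside the gene (below), and the bases before that start were not searched. A match is a description of the letters and not a mapped binding site.

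Aqp6 was the member with the clearest difference between groups. It encodes aquaporin 6, a channel of intracellular vesicles in type A cells that is known to conduct anions. Its gene lies on chromosome 15 at 99499075 to 99503358 (GRCm39, plus strand) and is overlapped by Gm34765 on the opposite strand, whose reads cannot be told apart where counting ignores strand. Normalized counts, which are counts divided by a size factor for the depth of each library, were 3283, 3294, 3016 and 3705 in ND_C and 4062, 9225, 6379 and 6967 in D_C. Every D_C library exceeded every ND_C library, D_C replicate 1 by the least. Aqp6 rose 2.00-fold in D_C over ND_C (log2 fold change 1.00 ± 0.20 SE, n = 4 per group, adjusted p = 0.0335, edgeR quasi-likelihood test with Benjamini-Hochberg adjustment over all genes tested). The adjusted p ranged from 6.30e-05 to 0.196 over 24 alternatives in edgeR and DESeq2 and was below 0.05 in 16 of them. Without D_C replicate 1 and ND_B12 replicate 4 the log2 fold change was 1.18 ± 0.14 (edgeR adjusted p = 0.000661). It was not called when any of D_C replicates 2, 3 and 4 or ND_C replicates 1, 2 and 3 was left out, when every gene with at least 1 count was tested (edgeR adjusted p = 0.0545), or with the label date in days as a covariate (0.97 ± 0.28, edgeR adjusted p = 0.196). The log2 fold change ran from 0.80 to 1.17 with single libraries left out.

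Slc4a1 followed Aqp6 library by library. It encodes AE1 (band 3), the chloride-bicarbonate exchanger of the basolateral membrane of type A cells and of the red cell membrane, and lies on chromosome 11 at 102239650 to 102257029 (minus strand). Its normalized counts were 3345, 3199.8, 3082 and 3566 in ND_C and 3586, 6158, 5661 and 5659.6 in D_C. Again no D_C library fell below an ND_C library, and D_C replicate 1 lay just above the highest of them. The log2 fold change of 0.67 ± 0.17 missed the threshold (edgeR adjusted p = 0.0526), and without D_C replicate 1 and ND_B12 replicate 4 Slc4a1 rose with a log2 fold change of 0.82 ± 0.12 (edgeR adjusted p = 0.00256). It was called by DESeq2 (adjusted p = 0.00333), and its edgeR adjusted p was 0.341 with the label date as a covariate. Over all 16 libraries log2 CPM (counts scaled to a common library total) of Slc4a1 and Aqp6 had a Pearson r of 0.949 and a Spearman rho of 0.956, and r was 0.913 for deviations from the group means. With the 2 libraries farthest from the Aqp6 median left out (D_C replicates 2 and 4), r was 0.948 over 14 libraries. These are descriptions over libraries that share groups, depth and dates.

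**Figure D1:**
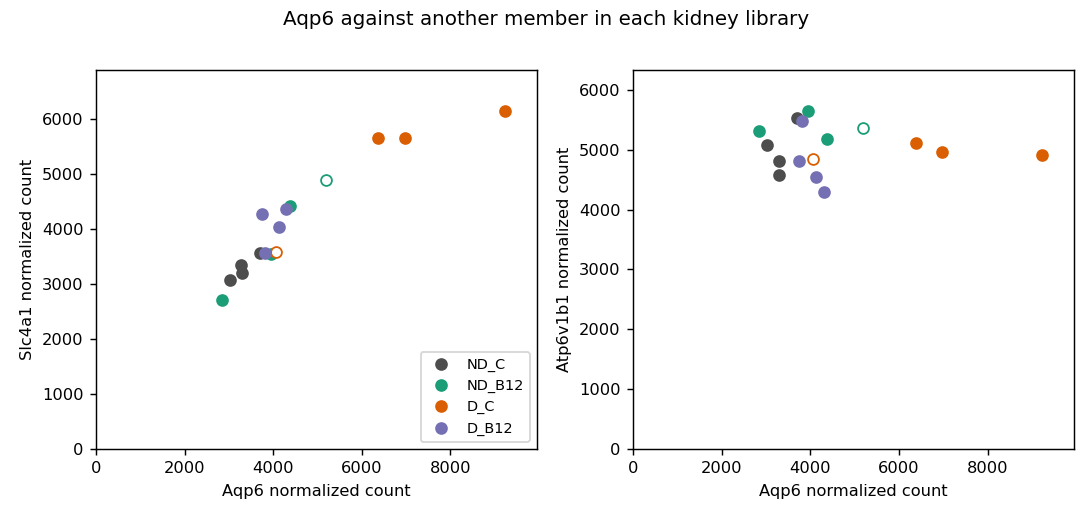
Normalized counts of Aqp6 (horizontal axis) against Slc4a1 (left) and Atp6v1b1 (right) in each of 16 kidney libraries, coloured by labelled group, with open circles for D_C replicate 1 and ND_B12 replicate 4. Slc4a1 climbs with Aqp6 up to D_C replicate 2 (9225 for Aqp6, 6158 for Slc4a1), while Atp6v1b1 stays between 4293 and 5651 over the same range.

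Red cells are another source of Slc4a1 and of Car2. The summed level of 9 erythroid markers ran from 255.7 to 306 CPM in D_C and from 289.7 to 402 in ND_C, so that it overlapped and its highest and lowest values were both lower in D_C. Rhag, the other of the 10 listed markers, was below the count minimum. No erythroid marker was called in this comparison. Hbb-bs, an adult beta globin gene, had a log2 fold change of -0.44 ± 0.17 (edgeR adjusted p = 0.168). Red cells read a longer Slc4a1 transcript than the kidney, which starts inside the gene. The deposited transcript table could not separate them, because a single coding transcript of 929 codons, Slc4a1-201, held 99.2% of the Slc4a1 counts.

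Aqp6 has 2 coding transcripts, of 293 codons (Aqp6-201) and 276 codons (Aqp6-202). The longer held 67.3% of the counts over all libraries. Its share ran from 60.3% to 78.1% in ND_C and from 57.7% to 83.8% in D_C, so the groups overlapped in the estimated share. Both transcripts were higher in D_C by group mean, with 4319 ± 984 against 2203 ± 473 normalized counts for Aqp6-201 (SD, n = 4) and 2339 ± 1235 against 1122 ± 208 for Aqp6-202.

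Among the other 8 members, none was called between D_C and ND_C. Of all genes tested 1.66% were called in this comparison (423 genes), against 1 of the 10 members. At an unadjusted p below 0.05 there were 3 of the 10 members, Aqp6, Slc4a1 and Foxi1, against 18.6% of all genes, and groups without overlap were found for 2 of the 10 members against 9.44% of all genes. In the direction of these 2 members, higher in D_C, the shares of all genes were 0.937% for the call and 4.86% for groups without overlap. The median log2 fold change of the members was 0.08, and that of all genes -0.0034.

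Foxi1, the forkhead transcription factor on which intercalated cells depend for their identity, lay low and even in D_C. Its normalized counts were 1083, 1071, 1138 and 993 there and 1801, 1322, 1611 and 1037 in ND_C, where the lowest library overlapped D_C. The log2 fold change was -0.43 ± 0.15 (edgeR adjusted p = 0.139), and -0.44 ± 0.17 (edgeR adjusted p = 0.12) without the 2 libraries that stand apart.

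Of the H+-ATPase subunits found mainly in intercalated cells and few other epithelia, none was called with all libraries. Atp6v1b1, the B1 subunit of the catalytic sector, had 4576, 4815, 5087 and 5531 normalized counts in ND_C and 4850.1, 4914, 5106 and 4968 in D_C (log2 fold change -0.01 ± 0.07). Atp6v0d2, the d2 subunit of the membrane sector, had 1671, 1749, 1833 and 1998 in ND_C and 1726, 2074, 2087 and 2462 in D_C. Only D_C replicate 1 overlapped ND_C, and Atp6v0d2 was called without it and ND_B12 replicate 4 (log2 fold change 0.28 ± 0.08, edgeR adjusted p = 0.0419) but not with them (0.20 ± 0.10, adjusted p = 0.286). Atp6v1g3, the G3 subunit of the stalk, had a log2 fold change of 0.11 ± 0.09.

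The type B exchangers showed no called difference. Slc26a4, which encodes the apical chloride-bicarbonate exchanger pendrin, had 2465, 2699.8, 2551 and 2995 normalized counts in ND_C and 2718, 1856, 3693 and 2886 in D_C, where both its lowest and its highest library lay. Slc4a9 encodes the basolateral transporter AE4, and its log2 fold change was -0.07 ± 0.11. D_C replicate 2, the highest library for Aqp6, Slc4a1 and Car2, was the lowest of all 16 for Slc26a4 and Slc4a9.

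The other members lie in GRCm39 on chromosome 12 at 31568169 to 31610244 (Slc26a4, minus strand), chromosome 6 at 83719967 to 83735837 (Atp6v1b1, plus), chromosome 4 at 19876838 to 19922614 (Atp6v0d2, minus), chromosome 1 at 138201461 to 138217200 (Atp6v1g3, plus), chromosome 11 at 34154338 to 34158089 (Foxi1, minus), chromosome 7 at 79243110 to 79267407 (Rhcg, minus) and chromosome 3 at 14951317 to 14967568 (Car2, plus). Slc4a9 lies on chromosome 18.

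Rhcg, the ammonia channel of the apical and basolateral membranes, had a log2 fold change of 0.01 ± 0.08 between D_C and ND_C. Car2, the cytosolic carbonic anhydrase that supplies protons and bicarbonate, had 20872, 19383, 21952 and 24549 normalized counts in ND_C. In D_C it had 16554, 34572, 23674 and 26870.0, with D_C replicate 1 the lowest and D_C replicate 2 the highest of all 16 libraries. Its log2 fold change was 0.23 ± 0.17 (edgeR adjusted p = 0.515), and without D_C replicate 1 and ND_B12 replicate 4 it passed the threshold at 0.39 ± 0.11 (edgeR adjusted p = 0.0494). In that smaller fit 4 of the 10 members were called, all higher in D_C, against 8.57% of all genes in either direction and 4.68% in that one. D_C replicate 1 was the lowest D_C library for each of these 4, so leaving it out raised their D_C means. Car2 is also expressed in red cells, proximal tubule and other nephron segments.

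**Figure D2:**
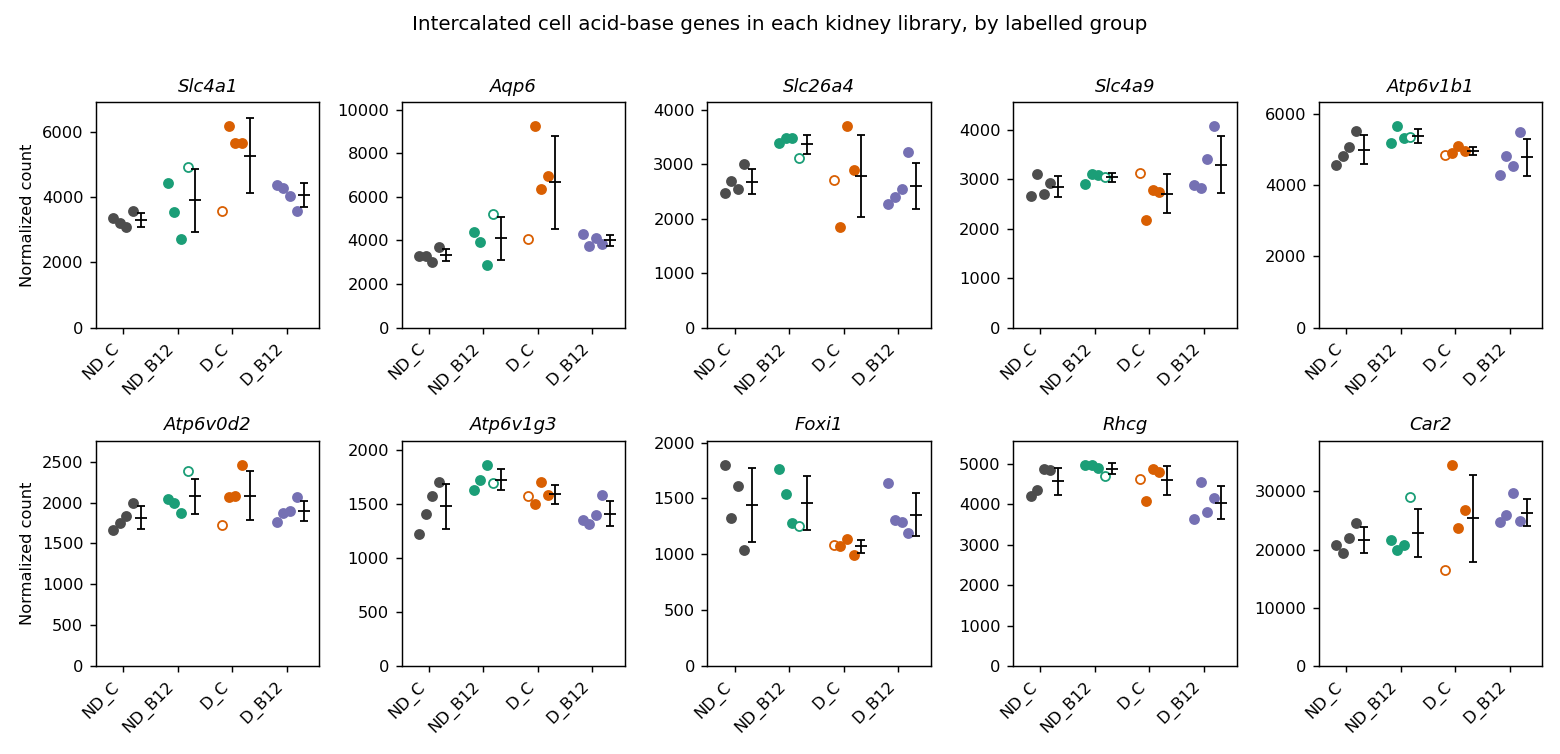
Normalized counts (vertical axes, from 0) of the 10 genes in each library, by labelled group, with the group mean and SD (n = 4) in black to the right of the points and open circles for D_C replicate 1 and ND_B12 replicate 4. D_C replicates 2, 3 and 4 stand highest for Aqp6 and Slc4a1, whereas Foxi1 is lowest and most even in D_C.

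With B12 in both groups, no member was called between D_B12 and ND_B12, a comparison in which 0.823% of all genes were called (209 genes, 66 of them higher in D_B12, against 8 of 18 with upper-quartile normalization). The members with the smallest p here were not Aqp6 and Slc4a1. Rhcg had 4971, 4977, 4898 and 4693 normalized counts in ND_B12 and 3643, 4561, 3813 and 4165 in D_B12, without overlap (log2 fold change -0.27 ± 0.08, edgeR adjusted p = 0.0853). Atp6v1g3 had 1625, 1716, 1859 and 1687 in ND_B12 and 1347, 1316, 1396 and 1579 in D_B12, also without overlap (-0.29 ± 0.09, edgeR adjusted p = 0.119). Groups did not overlap for 11.7% of all genes in this comparison and, with D_B12 lower, for 6.57%. Slc26a4 (-0.37 ± 0.15) and Atp6v1b1 (-0.17 ± 0.07) had unadjusted edgeR p values of 0.0268 and 0.0276, so that 4 of the 10 members were below 0.05, all lower in D_B12, against 17% of all genes in either direction and 9.2% in that one. Upper-quartile normalization left 3 of the 4, and 2450 of 4169 genes with such a p were then higher in D_B12, against 1980 of 4317 here. Rhcg was the only member among the 1146 genes called by DESeq2 (adjusted p = 0.0272). Aqp6 had a log2 fold change of -0.04 ± 0.19 and Slc4a1 of 0.06 ± 0.17. Without the 2 libraries that stand apart no member was called either, against 2.8% of all genes.

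An unadjusted p below 0.05 was found for 4 of the 10 members in the diabetes difference averaged over both treatments, 2 higher and 2 lower, against 19.4% of all genes. In that average no member passed the threshold in the fit of all libraries, where 3.02% of all genes did (767 genes, 219 of them higher in diabetes, against 708 of 1832 by DESeq2). Aqp6 had an average log2 fold change of 0.48 ± 0.14 (edgeR adjusted p = 0.0675) and Slc4a1 of 0.37 ± 0.12 (edgeR adjusted p = 0.1). Foxi1 had -0.27 ± 0.11 and Rhcg -0.13 ± 0.05, each with an edgeR adjusted p of 0.176. Without the 2 libraries that stand apart, 10.2% of all genes were called (4.86% higher in diabetes), and 3 of the 10 members, all higher. These were Aqp6 (0.64 ± 0.10, edgeR adjusted p = 0.00139), Slc4a1 (0.51 ± 0.09, edgeR adjusted p = 0.0027) and Car2 (0.36 ± 0.08, edgeR adjusted p = 0.0116).

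Between D_B12 and D_C, which share D_C with the comparison of untreated kidneys, no gene of the 25408 (0%) was called by edgeR, and 3468 (13.6%) had an unadjusted p below 0.05. DESeq2 called 681 genes, Aqp6 among them. Aqp6 stood at 4299, 3739, 4128 and 3820.0 normalized counts in D_B12, below D_C replicates 2, 3 and 4, while D_C replicate 1 lay inside its range (log2 fold change -0.73 ± 0.19, edgeR adjusted p = 0.125). It fell by 0.91 ± 0.14 on the log2 scale without D_C replicate 1 and ND_B12 replicate 4 (edgeR adjusted p = 0.0152), where 0.87% of all genes were called. Slc4a1 stood at 4373, 4269, 4038 and 3561, with log2 fold changes of -0.37 ± 0.17 (edgeR adjusted p = 0.339) and, without those libraries, -0.52 ± 0.12 (edgeR adjusted p = 0.0617).

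Foxi1 had the opposite sign, with 1641, 1303, 1290.1 and 1190.3 normalized counts in D_B12, all above D_C. Its log2 fold change was 0.34 ± 0.15 (edgeR adjusted p = 0.328), and groups did not overlap for 6.58% of all genes here (3.4% with D_B12 higher). Slc4a9, with 2878, 2829, 3399 and 4064 in D_B12 against 3123, 2172, 2787 and 2734 in D_C, overlapped (0.28 ± 0.11, edgeR adjusted p = 0.273). In all, 5 of the 10 members had an unadjusted p below 0.05, Aqp6, Slc4a1 and Rhcg lower and Foxi1 and Slc4a9 higher. Of all genes 13.6% had such a p, 1636 of these 3468 higher in D_B12. The number of members was 3 with these groups alone, 2 without D_C replicate 2 or 4, and 7 with the label date. Of the 10 principal cell genes listed below 5 were lower at such a p, and of the 13 other intercalated cell genes 5. Their median log2 fold changes were -0.42 and -0.22, against -0.12 for the members.

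**Figure D3:**
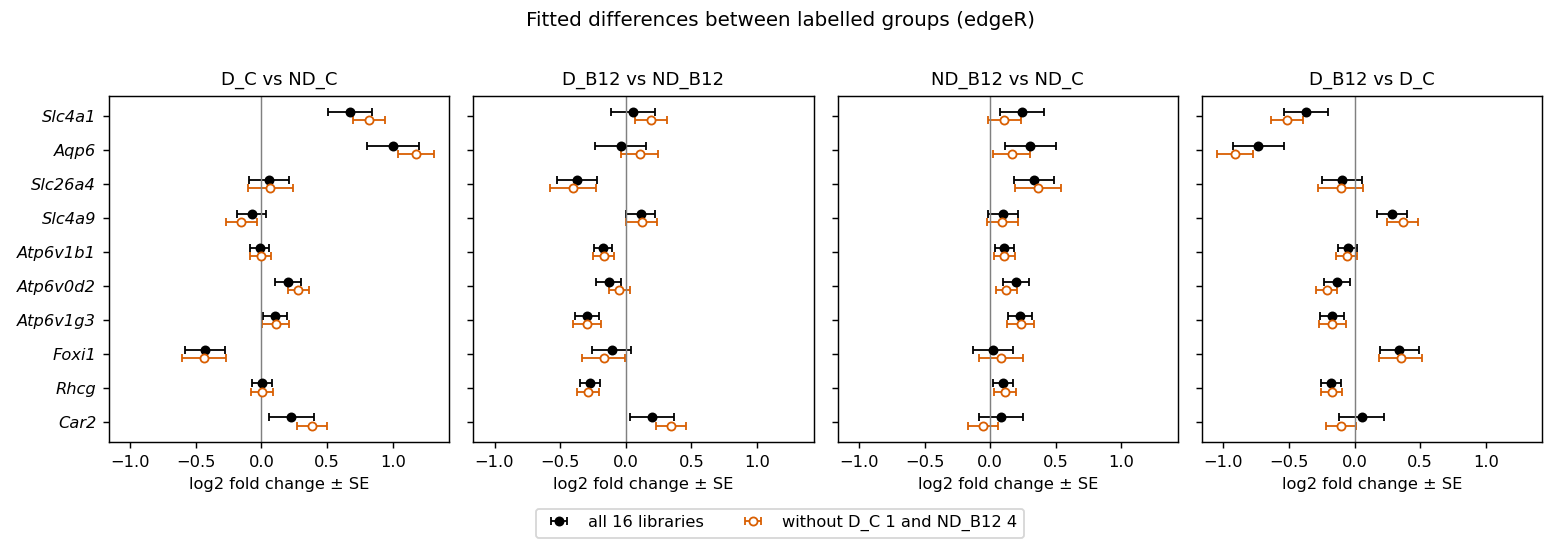
Log2 fold change (horizontal axes) with its SE for each of the 10 genes in 4 comparisons of labelled groups, from edgeR on all 16 libraries (black) and without D_C replicate 1 and ND_B12 replicate 4 (orange, open). Aqp6 and Slc4a1 stand right of 0 for D_C against ND_C (1.00 and 0.67) and left of it for D_B12 against D_C (-0.73 and -0.37), a pair of comparisons that share the D_C libraries.

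Between ND_B12 and ND_C no gene (0%) was called by edgeR with all libraries or without the 2 that stand apart, with 1937 of all genes (7.62%) at an unadjusted p below 0.05 and 6 called by DESeq2, none of them a member. All 10 members had a positive log2 fold change, with a median of 0.15 against 0.0019 for all genes, and 9 of the 10 did with upper-quartile normalization. Other lists had like medians, 0.16 for principal cells, 0.13 for other intercalated cell genes, and 0.11 for both proximal tubule and thick ascending limb. The medians of distal convoluted tubule and erythroid markers were negative (-0.12 and -0.14). An unadjusted p below 0.05 was found for 2 members, both higher, against 3.67% of all genes higher. The number of members was 1 with upper-quartile normalization and 0 with the label date or without ND_C replicate 1 or 2. It was 4 without ND_C replicate 4. With upper-quartile normalization 550 of the 1782 genes with such a p were higher, against 933 of 1937 here. Slc26a4 had 3383, 3476, 3476 and 3120.4 normalized counts in ND_B12, all above ND_C (0.33 ± 0.15, edgeR adjusted p = 0.646). Groups did not overlap for 4.81% of all genes (2.65% with ND_B12 higher). Atp6v1g3 had 0.23 ± 0.09 (edgeR adjusted p = 0.626). With all libraries Aqp6 had 0.30 ± 0.19 and Slc4a1 0.25 ± 0.17, and ND_B12 replicate 4 was the highest ND_B12 library for both. Without the libraries that stand apart the sign of Car2 turned, to -0.06 ± 0.11.

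The average B12 difference was called by edgeR for no gene (0%), with or without those 2 libraries, with 1321 genes (5.2%) below an unadjusted p of 0.05 and 6 called by DESeq2. Slc4a9 had 0.19 ± 0.08 (edgeR adjusted p = 0.899) and was the only member with an unadjusted p below 0.05. The interaction, which asks whether the diabetes difference changed with B12, was called for none either (0%), with 4093 genes (16.1%) below an unadjusted p of 0.05 and 923 called by DESeq2. It was -1.04 ± 0.27 on the log2 scale for Aqp6 (edgeR adjusted p = 0.0959), and -1.07 ± 0.20 without the 2 libraries that stand apart (edgeR adjusted p = 0.0437), where 0.35% of all genes were called. Slc4a1 (-0.62 ± 0.24), Atp6v1g3 (-0.40 ± 0.13), Atp6v0d2 (-0.33 ± 0.14) and Rhcg (-0.28 ± 0.11) had unadjusted edgeR p values between 0.00722 and 0.0292. With Aqp6 these made 5 of the 10 members, all negative, against 8.1% of all genes with a negative interaction at such a p. This was not particular to the members, whose median interaction was -0.31. Of the 10 principal cell genes listed below 5 were negative at such a p (median -0.58), and of the 13 other intercalated cell genes 6 (median -0.33). With upper-quartile normalization 2558 of 4009 genes with such a p were positive, against 2034 of 4093 here.

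Levels between genes were compared per transcript length, as TPM, deposited transcript counts divided by transcript length and scaled to a common total. Car2 was highest, at 260.2 ± 51.5 TPM (SD, n = 16). Atp6v1b1 (53.4 ± 3.97), Aqp6 (45.8 ± 18.8) and Rhcg (44.4 ± 4.06) came next, and neighbours in this trio differed by less than the SD of Aqp6. Slc4a1 (20.3 ± 5.41), Slc4a9 (19.4 ± 2.92), Atp6v1g3 (16.5 ± 1.72) and Atp6v0d2 (15.8 ± 2.15) followed, each less than the SD of Slc4a1 from its neighbour. Slc26a4 (12.4 ± 2.01) and Foxi1 (11.4 ± 2.29) were lowest and lay within an SD of each other. The place of Aqp6 differed between groups, at 69.5 ± 23.5 TPM in D_C (SD, n = 4), above Atp6v1b1 (54.0 ± 4.08), and at 32.6 ± 2.95 in ND_C, below Rhcg (43.4 ± 1.95). Over single libraries it ran from 27.5 to 95.9 TPM.

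**Figure D4:**
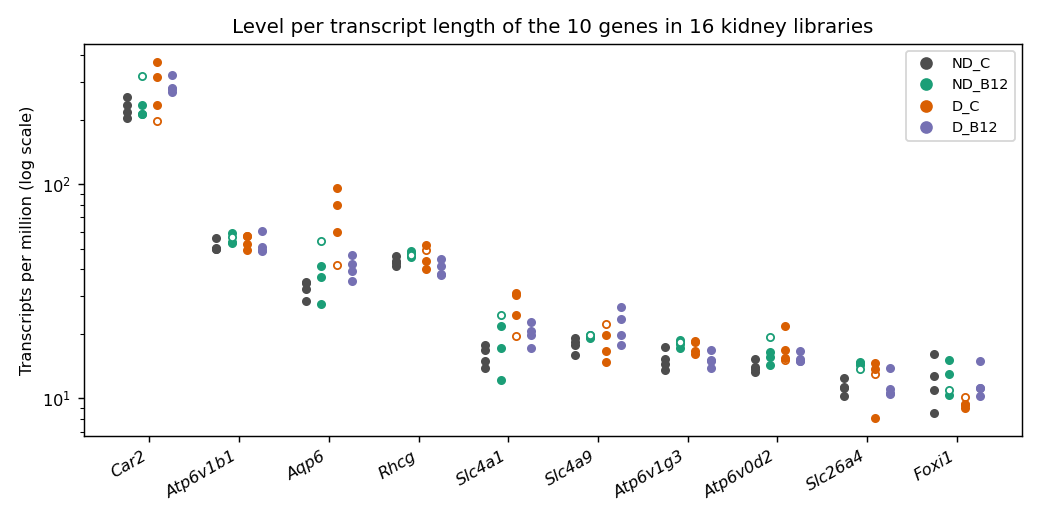
Level per transcript length (TPM, log scale) of the 10 genes in each of 16 libraries, ordered by mean level and coloured by labelled group, with open circles for D_C replicate 1 and ND_B12 replicate 4. Car2 lies between 196 and 373 TPM, above all others, and Aqp6 spreads from 27.5 to 95.9 TPM.

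The subunits that intercalated cells use have counterparts that nearly every cell uses, and these were more abundant. The mean level of Atp6v1b2 was 190.7 TPM, that of Atp6v0d1 88.8 and that of Atp6v1g1 136.2. None of them was called in any of the 7 comparisons. Of all 18 other V-ATPase subunit genes none was called between D_C and ND_C. Without the 2 libraries that stand apart 3 were, all higher (Atp6v1a, Atp6v1h and Atp6v0a1), against 4.68% of all genes.

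The other intercalated cell genes had a median log2 fold change of 0.22 between D_C and ND_C, 6 of 13 with an unadjusted p below 0.05, all higher, and none called, while 2366 of the 25408 genes tested were higher at such a p. Slc26a7, the basolateral chloride-bicarbonate exchanger of type A cells of the outer medulla, had 1.32 ± 0.33 (edgeR adjusted p = 0.055). P2ry14, a receptor for UDP-glucose on intercalated cells, had 0.74 ± 0.20 (edgeR adjusted p = 0.0663). Spink8, a protease inhibitor gene, rose in the diabetes average (1.14 ± 0.30, edgeR adjusted p = 0.0492), with D_B12 replicate 1 at 1315 normalized counts and the other D_B12 libraries at or below 436. Its edgeR and DESeq2 adjusted p ranged from 0.00642 to 0.234 over 23 alternatives and was below 0.05 in 7, any of 13 single libraries ended the call when left out, and without D_B12 replicate 1 the value was 0.83 ± 0.24 (edgeR adjusted p = 0.0881). Without the 2 libraries that stand apart, 4 of the 13 were called between D_C and ND_C, all higher (Atp6v0a4, Slc26a7, P2ry14 and Spink8), against 4.68% of all genes.

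Of the 17 other acid-base genes, 6 were higher and 1 lower in D_C than in ND_C at an unadjusted p below 0.05. Of all genes 18.6% had such a p. None of the 17 was called. Without the 2 libraries that stand apart 5 were called higher and 1 lower, against 8.57% of all genes. Slc38a3, the glutamine transporter SNAT3 that feeds proximal ammonia production, was called in the diabetes average (1.10 ± 0.27, edgeR adjusted p = 0.0378), and in 9 of 23 alternatives (adjusted p from 0.00128 to 0.466). Leaving out any of 11 single libraries ended the call, and the value was lowest without D_C replicate 2 (0.81 ± 0.20, edgeR adjusted p = 0.0567). It had 5506, 34449, 13514 and 15004 normalized counts in D_C and 17732, 17279, 22343 and 14320.5 in D_B12. ND_C ran from 6616 to 11310.4 and ND_B12 from 6321 to 10399.9. Every diabetic library but D_C replicate 1 stood above every non-diabetic one. Car15 (0.48 ± 0.13, edgeR adjusted p = 0.0606) and Car4 (-0.35 ± 0.10, edgeR adjusted p = 0.0673), both membrane carbonic anhydrases, missed the threshold in that average. Both were called without the 2 libraries that stand apart, at 0.64 ± 0.06 (edgeR adjusted p = 6.49e-05) and -0.45 ± 0.09 (edgeR adjusted p = 0.00591). Between D_B12 and D_C the log2 fold change of Slc38a3 was 0.07 ± 0.37 (edgeR adjusted p = 0.964), beside -0.73 for Aqp6.

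Some principal cell genes were high in the same libraries as Aqp6. Of their 10, Aqp2, the vasopressin-regulated water channel, and Aqp3, the basolateral water channel, rose in D_C over ND_C, with log2 fold changes of 1.69 ± 0.39 (edgeR adjusted p = 0.0436) and 0.60 ± 0.13 (edgeR adjusted p = 0.0397). Of all genes 0.937% were called higher. At an unadjusted p below 0.05, 5 of the 10 were higher, against 2366 of 25408 genes. The median log2 fold change of the 10 was 0.23, and that of the members 0.08. Of 24 alternatives Aqp2 was called in 12 and Aqp3 in 13, with adjusted p up to 0.135 and 0.285, and for both the call ended without D_C replicate 2, 3 or 4, ND_C replicate 1, 2 or 3, ND_B12 replicate 2 or D_B12 replicate 2, and for Aqp2 also without ND_C replicate 4. Without the 2 libraries that stand apart they had 1.91 ± 0.33 (edgeR adjusted p = 0.00531) and 0.71 ± 0.07 (edgeR adjusted p = 0.000399). Aqp2 had 7904, 5335, 4197 and 6249 normalized counts in ND_C and 9356, 27158, 16916 and 23006 in D_C, the order in which D_C libraries also stood for Aqp6. The summed level of the 10 genes ran from 526.9 to 721 CPM in D_C, 344 to 422 in ND_C, 382.7 to 506 in ND_B12 and 359.9 to 618 in D_B12. The summed level of the 10 members ran from 594.7 to 839 CPM in D_C and from 557 to 655 in ND_C. The part of collecting duct content in the Aqp6 and Slc4a1 values was not tested.

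Few markers of other segments were called with all libraries. In the diabetes average Slc34a1, the proximal phosphate transporter, was the only marker called of the 8 for proximal tubule and fell by 0.25 ± 0.05 on the log2 scale (edgeR adjusted p = 0.0178), a call that held in 22 of 23 alternatives and was lost with the label date. No marker of thick ascending limb (5), distal convoluted tubule (3), podocytes (5) or erythroid cells (9 tested) was called between D_C and ND_C with all libraries. Umod, the uromodulin gene of the thick ascending limb, had -0.35 ± 0.09 in the diabetes average (edgeR adjusted p = 0.0533) and fell by 0.43 ± 0.08 on the log2 scale without the 2 libraries that stand apart (edgeR adjusted p = 0.00431). Without them, calls between D_C and ND_C were Slc12a1, the sodium-potassium-chloride cotransporter of the thick ascending limb, and Ptger3 of the same list, both higher, and Slc34a1, Slc12a3 of the distal convoluted tubule and Wt1 of podocytes, all lower. In the diabetes average without them, Slc34a1, Slc12a3 and Hbb-bs were called lower and Pvalb and Nphs1, of distal convoluted tubule and podocytes, higher. Of the 5 thick ascending limb markers with all libraries, 3 were higher in D_C than in ND_C and 4 lower in D_B12 than in D_C at an unadjusted p below 0.05, comparisons that share D_C. Such a p was found for 18.6% and 13.6% of all genes in these comparisons, in either direction. The part of thick ascending limb content in the member values was not tested.

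**Figure D5:**
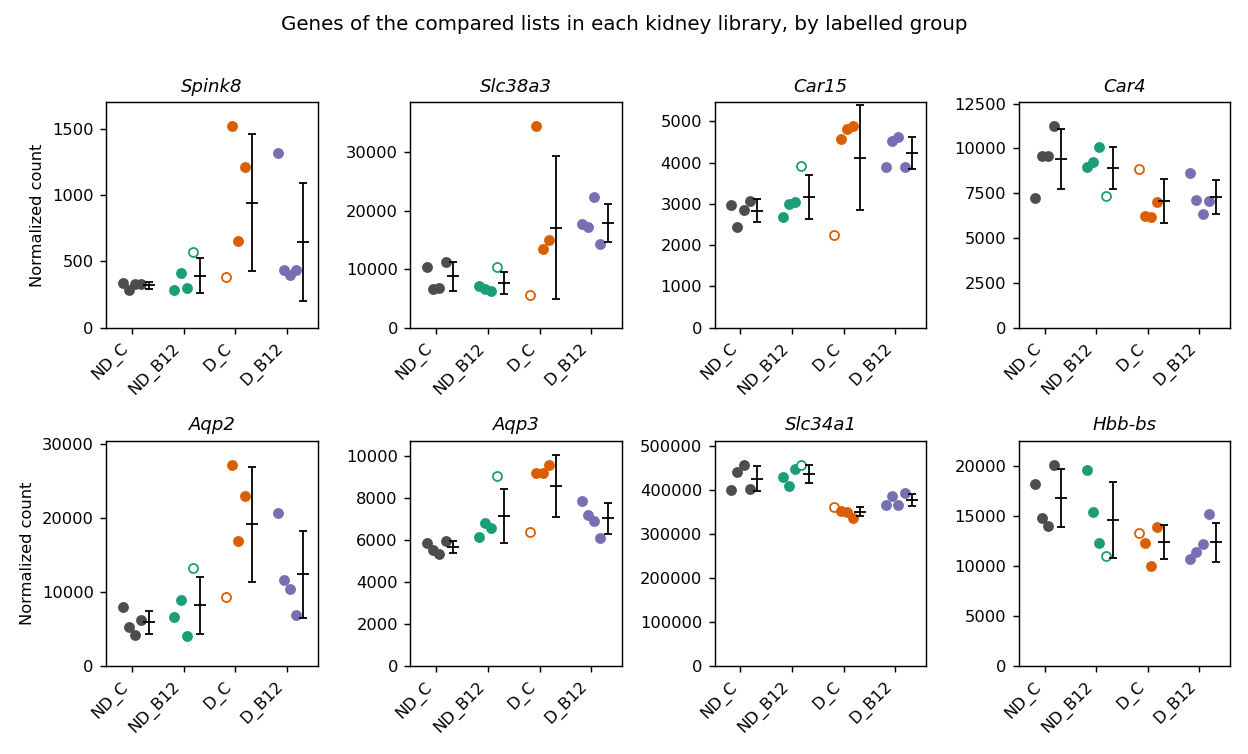
Normalized counts (vertical axes, from 0) of 8 genes from the compared lists in each library, by labelled group, with the group mean and SD (n = 4) and open circles for D_C replicate 1 and ND_B12 replicate 4. Aqp3 is highest in D_C replicates 2, 3 and 4, as Aqp6 is, while for Aqp2 D_B12 replicate 1 (20632) stands above D_C replicate 3 (16916). Slc38a3 is above every non-diabetic library in all diabetic libraries but D_C replicate 1, the lowest of the 16.

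The members themselves grouped by their variation over libraries, given here as correlations of log2 CPM. Atp6v1b1 and Atp6v1g3 had a Pearson r of 0.796 (rho 0.853, n = 16), Atp6v1b1 and Rhcg 0.687 and Slc26a4 and Atp6v1g3 0.703. Aqp6 and Atp6v1b1 had -0.04, Aqp6 and Car2 0.643 and Aqp6 and Atp6v0d2 0.684. Foxi1 had a negative r with each of the other 9, from -0.58 with Atp6v0d2 to -0.007 with Slc4a9. The sign turned for Slc4a9 without the 2 libraries that stand apart (0.04) and for Slc4a1 in deviations from the group means (0.04). Against the mean standardized level of the 10 members, the most similar other genes were Tcp11l2 (r = 0.875), Mtmr10 (0.856), Mocs1 (0.847), Gm9726 (0.844), Crebl2 (0.837), Mfsd14b (0.834), Pdgfc (0.832), Atxn10 (0.827), Fadd (0.823) and Snx4 (0.819), each over 16 libraries. Of the members, Atp6v0d2 was nearest to that mean (0.850) and Foxi1 farthest (-0.45). Each member is part of that mean, which raises its r, and the other genes are not. Those 10 other genes were the highest of all with a mean normalized count of at least 100, and no chance level was computed.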

How the data were processed

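Kidney RNA of 16 mice was sequenced, 4 per labelled group. Per the labels and methods, reads (demultiplexed with bcl2fastq 2.20.0) were mapped by the authors to GRCm39 with STAR and GENCODE vM35, and estimated counts per gene and transcript from StringTie and prepDE were deposited. These expected counts were whole numbers, so rounding changed none. The strand setting of the counting is not given in the sources used here. Of the members, 6 overlap an annotated gene on the opposite strand and Rhcg also overlaps 1 on its own. Totals ran from 65271308 to 91771136.

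The members and lists were chosen with earlier results of these data known. Genes reaching 100 counts in sum were tested, two-sided, with edgeR 4.0.16 in R 4.3.3 (glmQLFit, glmQLFTest, TMM, 4 group means, 12 residual degrees of freedom), adjusted by Benjamini-Hochberg and called at 0.05, and p-values measure the spread between mice. The fits were tested on simulated data. Alternatives were DESeq2 1.42.0, upper-quartile normalization, 2 other count filters, the label date in days, a replicate block, fits restricted to the groups compared, exact permutation (smallest p 0.0286 at 4 against 4) and libraries left out. TPM used GENCODE vM39 transcript lengths, covering 99.8% of transcript counts. Log2 CPM used a pseudocount of 0.5.

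Genes named are the members, up to 4 genes per list with the smallest p in the diabetes average and a mean normalized count of at least 100, 3 V-ATPase counterparts, and the 10 genes most like the member mean. Other list genes are named where a count of 5 or fewer includes them, chosen after their values were seen. The lists were other intercalated cell genes, other V-ATPase subunits, other acid-base genes, and markers of principal cells, proximal tubule, thick ascending limb, distal convoluted tubule, podocytes and erythroid cells. Protein sequences were not used here, and 1 gene that the naming rule gives is not reported here.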

Additional observations from a re-analysis of the deposited data

Results flagged for a closer look

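No member had a library far from the rest of its group. Over 180 combinations of a gene (members and list genes) and a group, 8 libraries stood apart by the gap to the nearest other library divided by the range of the group (above Dixon's 95% limit for 4 samples), and chance gives about 1 in 20 groups. D_B12 replicate 1 had 1315 normalized counts of Spink8 against 397 to 436 in the other D_B12 libraries (gap over range 0.957). The same library had 401 of Elf5, a transcription factor of principal cells, against 65.3 to 89.9 (0.927). D_C replicate 1 had 2236 of Car15 against 4567 to 4873 (0.884) and 6391 of Aqp3 against 9211 to 9594 (0.88). ND_B12 replicate 4 had 7344 of Hsd11b2, the enzyme that inactivates glucocorticoids in principal cells, against 8530.1 to 8629 (0.923). ND_C replicate 4 had 55690.1 of Hnf4a, a proximal tubule transcription factor, against 68194 to 69969 (0.876). D_B12 replicate 4 had 3615 of Hba-a1 against 2746 to 2846 (0.885) and 3569.8 of Hba-a2 against 2715 to 2796 (0.905), a pair of near-identical alpha globin genes between which the counting can divide reads.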

How the results depend on the processing

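Of the 10 members, 1 was called between D_C and ND_C, and the number was 2 with DESeq2, 2 with upper-quartile normalization, 0 with every gene of at least 1 count tested, 0 with the label date and 4 without D_C replicate 1 and ND_B12 replicate 4. Of all genes, in the same order, 423, 1603 and 474 of 25408 were called, then 63 of 40826, 2 of 25408 and 2127 of 24831. With single libraries left out the number of members ran from 0 (without D_C replicate 2, 3 or 4 or ND_C replicate 1, 2 or 3) to 2 (without D_C replicate 1 or ND_B12 replicate 3 or 4). Elsewhere 0 members were called with all libraries. DESeq2 called 1 between D_B12 and ND_B12, 1 between D_B12 and D_C, 2 in the diabetes average and 1 in the interaction, where it called 1146, 681, 1832 and 923 of 25408 genes. Without D_C replicate 1 and ND_B12 replicate 4 the numbers of members were 1 between D_B12 and D_C, 3 in the diabetes average and 1 in the interaction, against 216, 2531 and 87 of 24831 genes. The label date gave 3 members in the interaction (Slc26a4, Atp6v0d2 and Atp6v1g3), against 753 of 25408 genes. Single libraries left out gave 0 to 1 between D_B12 and D_C and 0 to 1 in the interaction (1 without D_C replicate 1), and 0 to 2 in the diabetes average (2 without D_C replicate 1 or ND_B12 replicate 4).

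Among the members' log2 fold changes in the comparisons of diabetic kidneys described above, some that had not been called turned sign. With the label date as a covariate they were -0.36 for Slc26a4, -0.029 for Atp6v0d2, -0.061 for Atp6v1g3 and -0.092 for Rhcg between D_C and ND_C, -0.30 for Slc4a9, 0.40 for Foxi1 and -0.031 for Car2 between D_B12 and ND_B12, -0.0043 for Slc4a9 and -0.10 for Car2 between D_B12 and D_C, and 0.12 for Foxi1 in the diabetes average. In the B12 average the date left 2 of the 10 members positive, against 7 without it. Upper-quartile normalization gave -0.015 for Rhcg between D_C and ND_C. Without D_C replicate 1 and ND_B12 replicate 4, Aqp6 had 0.11 between D_B12 and ND_B12 and Car2 -0.10 between D_B12 and D_C. With single libraries left out, values between D_C and ND_C ran from -0.11 to 0.21 for Slc26a4, -0.16 to 0.014 for Slc4a9, -0.059 to 0.041 for Atp6v1b1 and -0.037 to 0.056 for Rhcg. Those between D_B12 and ND_B12 ran from -0.084 to 0.19 for Slc4a1, -0.18 to 0.10 for Aqp6 and -0.00017 to 0.19 for Slc4a9. Those between D_B12 and D_C ran from -0.24 to 0.078 for Slc26a4, -0.12 to 0.011 for Atp6v1b1 and -0.087 to 0.25 for Car2. The cause was not tested.

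Same-numbered libraries correlated from -0.38 to 0.28 in their deviations from group means, and 6 of 24 pairs passed 0.1. Differently numbered libraries were not compared, so these values cannot tell whether replicate numbers pair the samples. With the replicate block the members called were 1 between D_C and ND_C and 0 elsewhere, as without it. The block ended the calls of Aqp2, Aqp3, Spink8 and Slc38a3 (edgeR adjusted p = 0.053, 0.0517, 0.0817 and 0.074). Over all genes the block gave 269 calls against 423 between D_C and ND_C, 25 against 209 between D_B12 and ND_B12, 478 against 767 in the diabetes average and 147 against 0 in the interaction. In the same order of these 4 comparisons DESeq2 called 1603, 1146, 1832 and 923 genes, the label date gave 2, 29, 0 and 753, and leaving out both libraries 2127, 695, 2531 and 87. Testing every gene with at least 1 count gave 63, 35 and 427 in the first 3, upper-quartile normalization 18 in the second, and a fit of D_C and ND_C alone 242. Between D_B12 and D_C the counts were 0 with all libraries, 681 by DESeq2, 204 with the label date, 1 with these groups alone and 216 without both. Single libraries left out gave 0 to 1552, 0 to 441, 235 to 1700 and 0 to 266 in the same 4 comparisons, 0 to 69 between D_B12 and D_C and 0 to 2 between ND_B12 and ND_C. At 4 against 4 exact permutation cannot go below 0.0286 and passes no adjustment. For the diabetes average, over 4900 arrangements within treatments, the exact permutation p was 0.0441 for Aqp6 and 0.04 for Slc4a1, unadjusted.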
